A study of Mus musculus with 4 samples.

Results

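Germline genes are genes whose products act in germ cells, and 8 of them were examined here in mouse embryonic stem (mES) cells: Dazl, Ddx4, Mael, Sycp1, Sycp3, Stra8, Tex19.1 and Stk31. They were chosen by name, and all 8 were found among the 17274 protein-coding genes on 20 chromosomes (the autosomes and X) for which a gene start was listed. For each gene, every ATAC-seq peak was taken that overlapped the gene body or 5 kb on either side. ATAC-seq uses a transposase to insert sequencing adapters into accessible chromatin, so a called peak marks a stretch of DNA that was cut more often than its surroundings. The cells carried either the wt genotype or the genotype Hox-/-, whose derived embryo models the series title describes as lacking all Hox function, and 2 libraries of each genotype were sequenced. Cells of both genotypes were grown in DMEM with 10% fetal bovine serum, 100 ng/ml leukaemia inhibitory factor, 3 µM of the GSK-3 inhibitor CHIR99021 and 1 µM of the MEK inhibitor PD0325901, a combination of inhibitors known as 2i. The labels do not say whether the libraries of a genotype came from separate cultures or clones, so the spread between them may be technical.

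Promoters of many germline genes are rich in CpG dinucleotides and are kept silent in somatic cells by DNA methylation. In embryonic stem cells the same promoters are also bound by a variant Polycomb complex that contains E2F6 and the MGA/MAX pair, which recognise an E2F site and the E-box CACGTG. The 2i inhibitors are known to lower DNA methylation in mouse embryonic stem cells. Dazl and Ddx4 are RNA-binding proteins of germ cells, Mael and Tex19.1 act in the control of transposons, Sycp1 and Sycp3 are structural proteins of the synaptonemal complex that joins paired chromosomes in meiosis, Stra8 is required for entry into meiosis, and Stk31 is a Tudor-domain protein expressed in the testis.

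The 250 bases before a start are shown for 5 of the genes, 5′ to 3′ on the strand of the gene and as RefSeq gives them for GRCm38.p6. Capitals mark each CACGTG, which is its own reverse complement, and each TCCCGC or its reverse complement GCGGGA. Sycp3 is shown because it holds CACGTG at 2 places and TCCCGC once (chr10:88459337-88459586, plus strand). Ddx4 has the most CpG of the 8 genes and both motifs (chr13:112652311-112652560, minus strand). Stk31 is shown because its start peak ranked higher in both Hox-/- libraries (chr6:49395289-49395538, plus strand). With 2 libraries of each genotype this order was described and could not be established by a test. Tex19.1 has TCCCGC but lacks CACGTG (chr11:121145893-121146142, plus strand), and Stra8 has the fewest CpG and neither motif (chr6:34920698-34920947, plus strand).
Sycp3: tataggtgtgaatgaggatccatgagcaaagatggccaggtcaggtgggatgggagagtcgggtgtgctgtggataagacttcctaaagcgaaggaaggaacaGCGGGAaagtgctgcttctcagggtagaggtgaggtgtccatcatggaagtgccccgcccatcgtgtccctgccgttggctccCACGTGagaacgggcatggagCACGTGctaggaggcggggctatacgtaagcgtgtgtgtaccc
Ddx4: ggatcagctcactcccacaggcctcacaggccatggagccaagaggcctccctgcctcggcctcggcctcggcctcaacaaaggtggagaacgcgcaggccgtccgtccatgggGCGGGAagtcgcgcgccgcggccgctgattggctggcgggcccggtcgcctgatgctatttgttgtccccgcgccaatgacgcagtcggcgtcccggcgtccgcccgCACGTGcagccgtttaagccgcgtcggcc
Stk31: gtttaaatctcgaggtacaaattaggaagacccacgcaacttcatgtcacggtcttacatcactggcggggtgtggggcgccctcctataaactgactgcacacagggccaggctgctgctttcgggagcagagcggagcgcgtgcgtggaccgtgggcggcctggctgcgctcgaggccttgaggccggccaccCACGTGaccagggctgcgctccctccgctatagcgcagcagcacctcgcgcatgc
Tex19.1: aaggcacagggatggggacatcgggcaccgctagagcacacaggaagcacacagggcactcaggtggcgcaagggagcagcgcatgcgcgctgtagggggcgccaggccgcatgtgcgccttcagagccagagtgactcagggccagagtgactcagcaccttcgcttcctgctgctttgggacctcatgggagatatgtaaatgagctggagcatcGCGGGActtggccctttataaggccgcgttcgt
Stra8: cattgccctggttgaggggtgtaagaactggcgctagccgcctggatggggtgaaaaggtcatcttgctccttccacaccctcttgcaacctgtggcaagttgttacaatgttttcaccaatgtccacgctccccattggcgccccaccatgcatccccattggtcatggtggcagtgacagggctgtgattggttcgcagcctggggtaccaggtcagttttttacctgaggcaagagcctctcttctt

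These upstream sequences held between 5 and 31 CpG, with 5 in Stra8, 12 in Sycp3, 15 in Tex19.1, 17 in Sycp1, 18 in Mael, 20 in Dazl, 31 in Ddx4, and 21 and 26 before the 2 listed starts of Stk31. The median over 21045 promoters of protein-coding genes was 10. CACGTG lay before the start of 5 of the 8 genes (Ddx4, Mael, Sycp1, Sycp3 and Stk31), against 6.70% of all promoters of the same length and 8.83% of the 14074 promoters with at least 5 CpG. TCCCGC in either orientation lay before 4 of the 8 (Ddx4, Mael, Sycp3 and Tex19.1), against 22.0% of all promoters and 31.7% of those with at least 5 CpG. Both motifs occurred together in 3 genes, in 1.97% of all promoters and in 2.91% of those with at least 5 CpG. Such a match is a run of letters and not evidence of binding. The motifs were chosen with the sequences of the 8 genes in view, so these counts describe the genes and do not test enrichment.

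Called peaks numbered 213705 in wt replicate 1, 216795 in wt replicate 2, 191704 in Hox-/- replicate 1 and 200214 in Hox-/- replicate 2. Sequencing depth is unknown from these lists, and the list of Hox-/- replicate 1 is the shortest. At the mutated genes, 183 and 188 peaks lay over the 4 Hox clusters in wt, against 6 and 4 in Hox-/-. As a check of the cell type, 7 of 7 matched stem cell marker genes had a peak within 1 kb of a start in all 4 libraries, and 6 of the 7 had it among the 50000 strongest of each library. The corresponding counts were 4 and 0 of 4 matched genes of primed or differentiating cells, and 2 and 0 of 4 matched feeder fibroblast genes. Over all protein-coding genes the shares were 67.8% and 49.4%. All matched stem cell and primed markers had a start peak, so only the strong counts differed between these lists, over few genes. Accessible chromatin does not show expression, and what part other cells had in any result was not tested.

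All 8 germline genes had a peak within 1 kb of a start in each of the 4 libraries, and all 8 had one within 1 kb of an end of the gene body. Genome-wide this held for 67.8% of protein-coding genes at a start and 67.7% at an end. Dazl, Tex19.1 and Stk31, 3 of the 8 genes, had a start peak among the 50000 strongest of every library. Of all protein-coding genes 49.4% did, so this count is near the genome-wide share. The Dazl peak of this count lay 0.8 kb inside the gene, and the Dazl summits nearer the start were weak. The windows of the 8 genes, 412.5 kb in sum, contained 29 and 34 peaks in wt and 32 and 35 in Hox-/-. Of these 130 listed peaks, 48 lay within 1 kb of a start (11 and 12 in wt, 12 and 13 in Hox-/-) and 33 were among the 50000 strongest of their library. The strong ones made up 25.4%, near the 25.8% over peaks in the windows of all protein-coding genes. The share at starts was 36.9%, against 21.2% over those windows, and depends on how long the genes are. The peaks ranged in fold over background, as the authors' peak caller gave it, from 1.94 to 20.4.

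**Figure D1:**
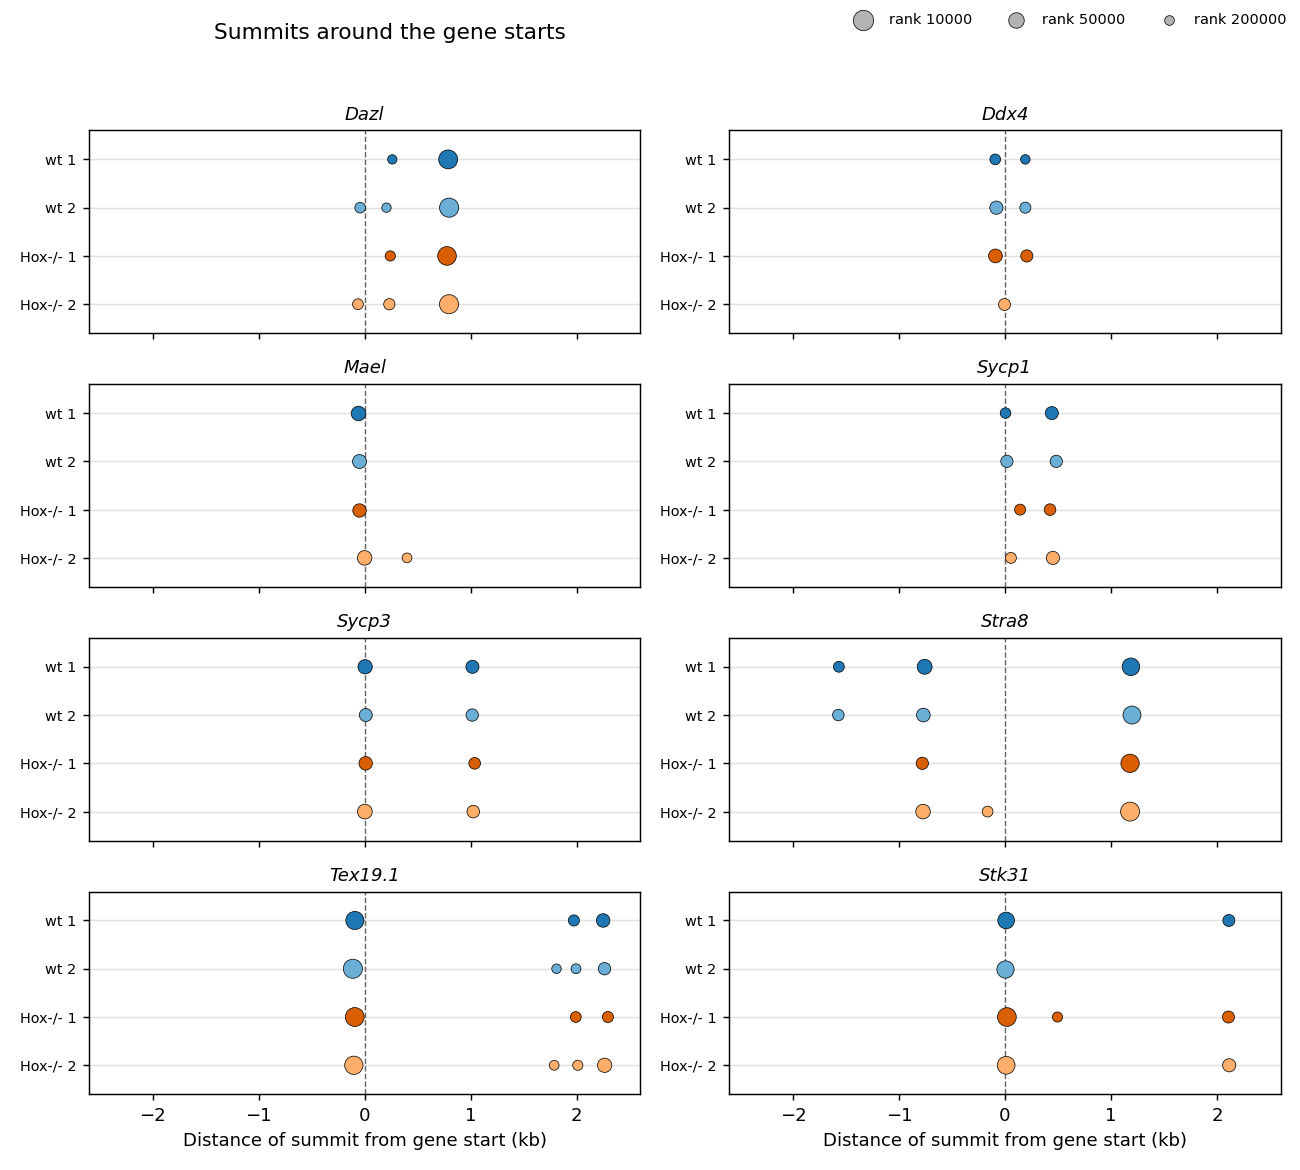
Summits of listed peaks within 2.5 kb of the gene start (x axis, kb, positive into the gene) for the 8 germline genes, 1 row per library, with wt in blue and Hox-/- in orange. Larger circles are stronger peaks by rank of the −log10 p within the library; Ddx4, Mael, Sycp3, Tex19.1 and Stk31 show a summit within 111 bp of a start in all 4 libraries, whereas the strong summits of Dazl and Stra8 lie about 0.8 kb and 1.2 kb inside the gene.

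The strength of a peak is given below as its rank by −log10 p within its library, 1 being the strongest. Dazl (chr17:50279393-50293620, minus strand) had its strongest peak inside the gene, with the summit 788 and 797 bp from the start in wt, and 777 and 796 bp from it in Hox-/-. It ranked 16786 and 15549 in wt and 18322 and 15567 in Hox-/-, with a fold over background of 15.4 and 15.4 in wt and 14.6 and 15.0 in Hox-/-. The 4 libraries were close to each other and the genotypes overlapped. At the start itself only weak summits were listed, the nearest at 261 and 42 bp from it in wt and 242 and 63 bp from it in Hox-/-, ranking 211774 and 166338 in wt and 179703 and 160927 in Hox-/-. The best rank stood at 7.85% and 7.17% of the list in wt and at 9.56% and 7.78% in Hox-/-.

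Ddx4 (chr13:112598333-112652633, minus strand), the germ cell RNA helicase also called Vasa, had a weak peak at its start. Its summit lay 91 and 80 bp upstream in wt and 89 and 10 bp upstream in Hox-/-. The rank was 165206 and 93221 in wt and 81479 and 125417 in Hox-/-, and the fold over background 3.43 and 6.23 in wt and 6.41 and 4.19 in Hox-/-. The 2 libraries of each genotype differed widely from each other, and the genotypes overlapped. A second region, 33.7 kb into the gene, was listed in all 4 libraries at ranks from 157009 to 185927. Slc38a9, which encodes an amino acid transporter of the lysosome and whose body begins 3.6 kb from Ddx4, had start peaks at ranks 1977 and 3437 in wt and 2931 and 2461 in Hox-/-, outside the window of Ddx4. The pseudogene Gm3226 lies 3.2 kb beyond the other end of Ddx4.

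Mael (chr1:166201385-166238744, minus strand), a piRNA pathway protein, had a summit 65 and 55 bp upstream of the start in wt and 51 and 0 bp upstream in Hox-/-. The ranks were 65757 and 77364 in wt and 89691 and 65832 in Hox-/-, with folds of 8.16, 7.35, 5.89 and 7.53 in that order of libraries. The genotypes overlapped, with the lower rank in Hox-/- replicate 1. An internal region 23.2 kb from the start was also listed in every library.

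Tex19.1 (chr11:121146143-121148314, plus strand), a protein of germ cells, pluripotent cells and placenta, had a strong peak centred 92 and 111 bp upstream of the start in wt and 93 and 102 bp upstream in Hox-/-. It ranked 22264 and 15579 in wt and 17144 and 20880 in Hox-/-, with folds of 10.1, 11.9, 11.0 and 10.1. The genotypes overlapped. Smaller summits near the far end of this 2.2 kb gene brought its count to 3 and 4 peaks in wt and 3 and 4 in Hox-/-. The related gene Tex19.2 lies 27.5 kb away and had only weak start peaks, at ranks 117546 and 104224 in wt and 155246 and 115031 in Hox-/-; how reads that match both copies were handled is not given in the sources used here.

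Of the synaptonemal complex genes, Sycp3 (chr10:88459587-88473236, plus strand) encodes a protein of the lateral element. Its start peak was centred 5 and 11 bp inside the gene in the wt libraries and 10 and 2 bp inside it in the Hox-/- libraries. The CACGTG sites begin 64 and 43 bp upstream of the start. The peak ranked 70414 and 98224 in wt and 88010 and 62017 in Hox-/-, with folds of 6.67, 5.25, 5.35 and 7.09. Each genotype had a higher and a lower library, and the values overlapped. Flanking regions 2.7 kb upstream and 0.9 kb into the gene were listed in all 4 libraries at ranks from 86318 to 134767. The end of Chpt1, an enzyme of phosphatidylcholine synthesis, overlaps the end of Sycp3, and its own start lies outside the window.

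Sycp1 (chr3:102818499-102936100, minus strand), the protein of the transverse filaments, had 2 weak summits near its start in every library. One lay 443 and 485 bp inside the gene in wt, and 426 and 453 bp inside it in Hox-/-, at ranks 97298 and 117902 in wt and 136220 and 93732 in Hox-/-. The other, 6 to 144 bp inside the gene, ranked no better in any library. By contrast, a narrow region 87.2 kb into the gene was strong, at ranks 16664 and 16806 in wt and 28105 and 15716 in Hox-/- and folds of 19.9, 20.4, 14.2 and 19.4. Hox-/- replicate 1 was the low library there. A region 55.4 kb into the gene, which overlaps the pseudogene Gm33866, was not listed in wt replicate 1 and ranked 114908 in wt replicate 2 and 125108 and 69669 in Hox-/-. Nr1h5, a nuclear receptor gene whose body ends 3.6 kb away, had no start peak in any library.

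Stra8 (chr6:34920163-34939344, plus strand) had its most accessible sites beside rather than at its start. The best peak lay 1189 and 1199 bp inside the gene in wt and 1181 bp inside it in both Hox-/- libraries. It ranked 26643 and 23343 in wt and 20684 and 16512 in Hox-/-, with folds of 9.85, 11.0, 11.0 and 11.6. On the upstream side a summit 757 and 769 bp away in wt and 779 and 772 bp away in Hox-/- ranked 59880 and 82774 in wt and 117462 and 65459 in Hox-/-. This is close to the upper end of the gene body, which begins 785 bp before the listed start. A summit nearer to the listed start, at 163 bp, was called in Hox-/- replicate 2 alone, at rank 161379. The peaks 6.4 kb inside the gene and 20.7 kb from the start, beyond the far end of the gene, were also among the 50000 strongest in every library.

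Stk31 (chr6:49395506-49469506, plus strand), which lies 2.7 Mb from the HoxA cluster, had a strong peak at its start. In wt its summit was 12 and 2 bp from a listed start, and in Hox-/- it was 19 and 12 bp from one. It ranked 35845 and 29248 in wt and 17955 and 24885 in Hox-/-, with folds of 12.6 and 14.5 in wt and 15.9 and 13.9 in Hox-/-. Both Hox-/- libraries ranked above both wt libraries, while the folds overlapped. Of all protein-coding genes with a start peak in every library, 20.1% showed this order of ranks. The best rank by −log10 p of all 8 genes was that of a peak 17.7 kb inside Stk31, at ranks 10275 and 9740 in wt and 10749 and 8050 in Hox-/-, where the genotypes overlapped. The pseudogene Gm17060 lies within Stk31. The window held 7 and 6 peaks in wt and 8 and 5 in Hox-/-.

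Set against all protein-coding genes with a start peak in all 4 libraries (11704 genes, median rank 17376), the 8 starts fell into a stronger and a weaker set. The geometric mean rank over the libraries was 16518 for Dazl (from the site 0.8 kb inside the gene), 18771 for Tex19.1 and 26162 for Stk31, in the middle of the distribution: 48.5%, 52.1% and 60.9% of genes ranked as well or better. Mael (74032), Sycp3 (78384), Stra8 (78571), Sycp1 (110012) and Ddx4 (112004) had 86.6%, 87.7%, 87.7%, 94.2% and 94.4% of genes ranking as well or better. Of neighbours in this order, Stk31 ranked below Tex19.1, Mael below Stk31 and Sycp1 below Stra8 in each of the 4 libraries. The order of Dazl and Tex19.1, of Mael and Sycp3, of Sycp3 and Stra8, and of Sycp1 and Ddx4 changed from library to library.

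**Figure D2:**
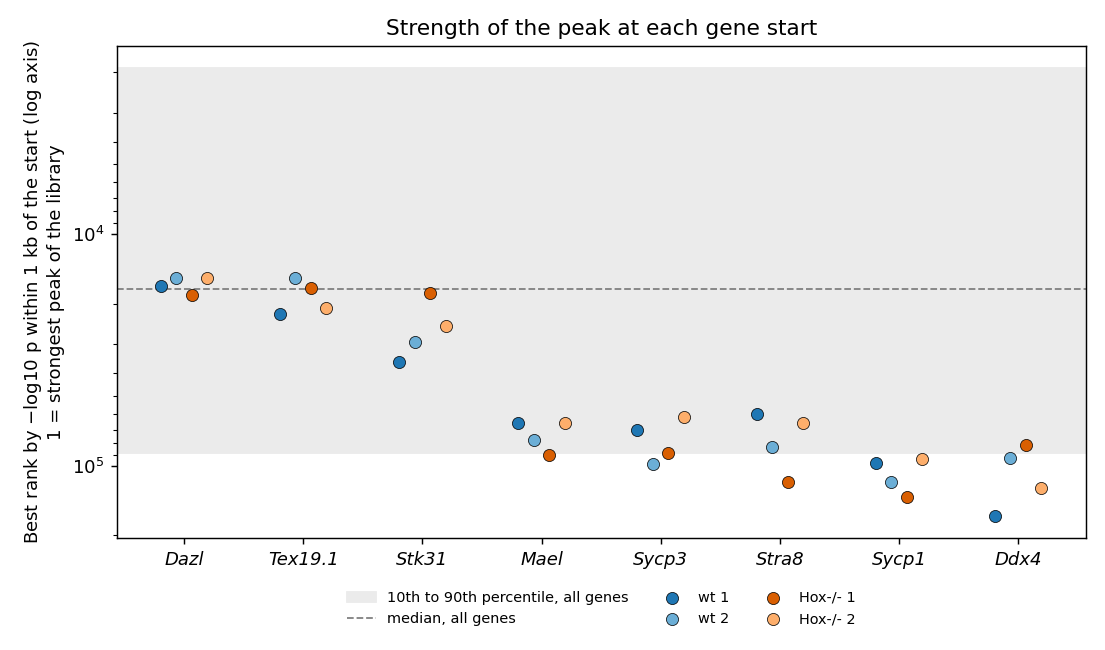
Best rank by −log10 p within 1 kb of a gene start (log axis, stronger peaks higher) for each germline gene, ordered by the geometric mean over 4 libraries, with 1 point per library. The grey band spans the 10th to 90th percentile and the dashed line marks the median of 11704 protein-coding genes; Dazl, Tex19.1 and Stk31 lie near the median and the other 5 genes near or beyond the weak edge of the band.

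CpG content is related to whether a start is called at all, so the genes were also set against genes of like CpG content. Of protein-coding genes with 4 CpG or fewer in the 250 bases upstream, 16.8% had a start peak in all 4 libraries. The share was 70.5% for 5 to 9 CpG, the class of Stra8, and 95.3%, 97.0% and 97.4% for 10 to 14, 15 to 19, and 20 or more CpG, the classes of the other 7 genes. Rank placed several of the genes low within their class: 96.5% of genes with 20 or more CpG ranked as well as or better than Ddx4, as did 97.3% and 93.2% of those with 15 to 19 CpG for Sycp1 and Mael, 89.6% of those with 10 to 14 for Sycp3 and 81.8% of those with 5 to 9 for Stra8. The corresponding values were 51.2% for Dazl, 61.4% for Tex19.1 and 64.1% for Stk31. These percentiles are descriptions of 8 chosen genes and were not tested.

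Whether loss of Hox function was accompanied by a change at these genes was asked first by presence. No germline gene had a peak in its window in both libraries of one genotype and in neither of the other, a pattern found in 0.388% of protein-coding genes for wt and 0.156% for Hox-/-. The windows together held 31.5 ± 3.54 peaks (SD, n = 2) per wt library and 33.5 ± 2.12 (SD, n = 2) per Hox-/- library. The difference of 2 was within the spread of the libraries (p = 0.67 by a two-sided exact permutation test, for which 2 against 2 libraries cannot go below 0.33). It turned to −2 when only peaks with −log10 q of 5 or more were kept and to −0.5 without wt replicate 1. Overlapping peaks from different libraries were joined into regions, of which the windows held 31. Of these, 20 were called in all 4 libraries, against 59.0% of all 208093 regions. A single region, 1.6 kb upstream of Stra8 (chr6:34919247-34919514), was present in the 2 wt libraries and absent from the 2 Hox-/- lists. It was weak, at ranks 158990 and 138319, and 3.82% of all regions show this pattern. The reverse was found at 0 of the 31 regions and at 1.23% of all regions. The other 10 were called in 1 to 3 libraries without separating the genotypes.

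The genotype shift was then measured on regions called in all 4 libraries, ranked only among themselves so that the 4 lists had equal length (122746 regions). It is the log2 ratio of the geometric mean rank in wt to that in Hox-/-, so that a positive value means a stronger peak in Hox-/-. The median over the 20 regions of the germline genes was 0.026, with 10 positive and 10 negative, compared with 0.0052 over all regions. It was negative with windows of 1 kb (−0.024), with ranks by fold (−0.0063) and without Hox-/- replicate 2 (−0.069), so it has no stable direction. In 4 of the 20 regions both Hox-/- ranks lay above both wt ranks, and in 1 below. Over all regions these patterns made up 20.5% and 20.3%, so that 4 of 20 is near the background and 1 of 20 below it.

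**Figure D3:**
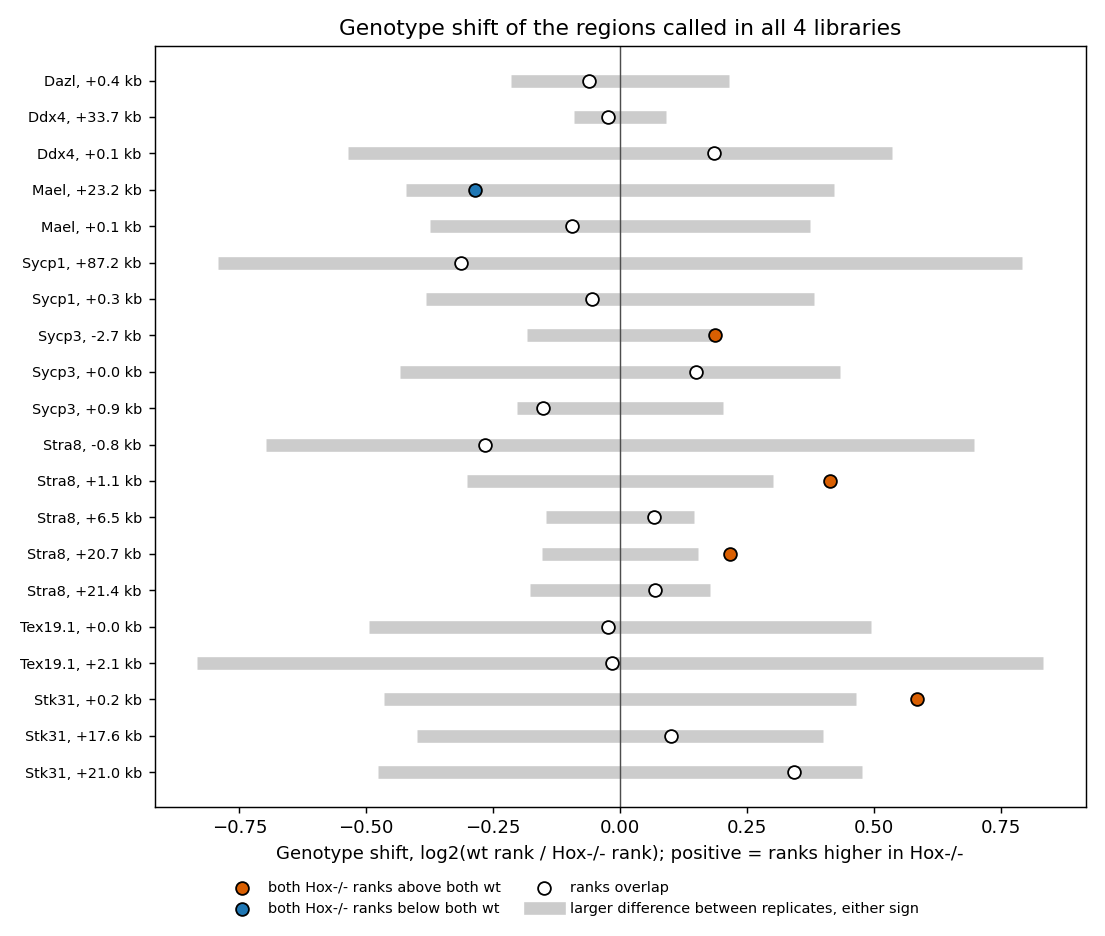
Genotype shift (x axis, log2 of wt rank over Hox-/- rank) of the 20 regions of the germline genes that all 4 libraries call, labelled by gene and by the distance of the region's middle from the gene start. Grey bars show the larger of the differences between replicates, drawn to both sides of 0; the Stk31 start at 0.58 and the Stra8 region at +1.1 kb at 0.41 lie outside their bars, as do the Stra8 region at +20.7 kb and, narrowly, the Sycp3 region at -2.7 kb. Over all regions 28.0% exceed their replicate differences, against 4 of these 20.

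Ranked by −log10 p, the largest shift was at the Stk31 start, whose rank among the shared regions was 33115 and 27269 in wt and 17055 and 23550 in Hox-/-. The shift of 0.58, a 1.5-fold better rank in Hox-/-, exceeded the differences between replicates (0.28 in wt and −0.47 in Hox-/-), and 5.25% of all regions had a shift of this size or more in either direction. The region 1.1 kb inside Stra8 had shared ranks of 25004 and 22003 in wt and 19563 and 15868 in Hox-/-, a shift of 0.41, which 14.4% of all regions reached. Ranked by fold instead of −log10 p, the shift was 0.69 at the Stk31 start and 0.42 at this Stra8 region. The largest was then −1.47, at the region 87.2 kb inside Sycp1. The fold there was 19.9 and 20.4 in wt and 14.2 and 19.4 in Hox-/-, with Hox-/- replicate 1 the low library. The region 20.7 kb from the Stra8 start had a shift of 0.22, and the region 2.7 kb upstream of Sycp3 had one of 0.19, against a replicate difference of −0.18 in Hox-/-. For the 4 Stk31, Stra8 and Sycp3 regions above, the exact two-sided permutation test on ranks by −log10 p gave p = 0.33. This is the smallest possible value, so no difference could pass 0.05. The region 23.2 kb inside Mael ranked lower in both Hox-/- libraries, with a shift of −0.28 that was smaller than the difference between the Hox-/- replicates (0.42).

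At the best region of the other 7 genes the genotypes overlapped. The shift was −0.062 for Dazl, 0.18 for Ddx4, −0.095 for Mael, 0.15 for Sycp3, −0.024 for Tex19.1, −0.31 for Sycp1 at the site 87.2 kb inside the gene, and 0.10 for Stk31 at the site 17.7 kb inside it, each under the larger difference between its replicates. For Sycp1 the difference between the Hox-/- replicates was 0.79, and without Hox-/- replicate 1 the shift was 0.082. By fold the shift was −0.083 at the Stk31 site 17.7 kb inside the gene and 0.023 at the Tex19.1 start, each of the opposite sign. Among 136 regions within 1 Mb of Stra8 but outside its window the median shift was −0.091, and among 168 such regions around Stk31 it was −0.056, against 0.070 over the 5 regions of Stra8 and 0.34 over the 3 regions of Stk31. Mael and Sycp1 differed from their surroundings the other way, with medians of −0.19 and −0.18 over 2 regions each against 0.049 and 0.039. The other 4 genes had medians of −0.062 (Dazl), 0.080 (Ddx4), 0.15 (Sycp3) and −0.019 (Tex19.1), against −0.014, −0.0045, 0.088 and −0.019 around them. None of these differences was tested.

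Other genes of the germline were described from lists of the same pathways, to be read against the 67.8% of all protein-coding genes with a start peak in every library and the 49.4% with a strong one. Of 20 matched genes of the synaptonemal complex and meiosis, 18 had a start peak in all 4 libraries and 11 had it among the 50000 strongest. The best ranked were Rec8, a meiotic cohesin (972 and 481 in wt, 711 and 1386 in Hox-/-), Msh5, a crossover factor (1310 and 1421 in wt, 1327 and 937 in Hox-/-), and Prdm9, which sets recombination sites (1750 and 2014 in wt, 1636 and 2690 in Hox-/-). Of 16 matched piRNA pathway genes 13 had a start peak in every library, and 5 a strong one. Tdrkh (6058 and 4405 in wt, 4871 and 3993 in Hox-/-), Pld6 (10562 and 12005 in wt, 8348 and 11063 in Hox-/-) and Ddx25, a testis RNA helicase (18617 and 24960 in wt, 7552 and 9843 in Hox-/-), led this list. Among 11 matched regulators of germ cells, 8 had a start peak in every library and 3 a strong one, Prdm1, Kit and Sohlh2. None of the differences from the genome-wide shares was tested, and the 8 of 11 here and the 11 of 20 strong starts of the meiosis list are near them. The promoters of the meiosis and piRNA lists held a median of 13 and 15.5 CpG. Of all genes with 10 to 14 and 15 to 19 CpG, 95.3% and 97.0% had a start peak in every library. The lists spread over other classes too, with 10th to 90th percentiles of 5.6 to 23.4 and 3 to 29.7 CpG. Shares were lower at 16.8% for 4 CpG or fewer and 70.5% for 5 to 9. No share matched gene by gene is given, so 18 of 20 and 13 of 16 cannot be placed above or below one.

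Of 13 matched genes of late spermatids, which act after meiosis, 3 had a start peak in all 4 libraries (Tssk6, Prm1 and Ldhc) and 9 had none in any library. Over all protein-coding genes 28.1% had none. The late spermatid promoters held a median of 2 CpG, and of all genes with 4 CpG or fewer 76.4% had none and 16.8% had one in every library, so the list is near the share of its CpG class. CACGTG was found in 0 of 17 late spermatid promoters, 6 of 24 promoters of the meiosis list and 8 of 24 of the piRNA list, against 6.70% of all promoters, so that 0 of 17 is near the background. TCCCGC was found in 0 of 17, 14 of 24 and 2 of 24 promoters of these lists, against 22.0% of all promoters and 31.7% of those with at least 5 CpG. TCCCGC itself contains a CpG, which the late spermatid promoters have few of. Of factors that act on germline promoters, mostly repressors but including the demethylating enzymes Tet1 and Tet2, 19 of 19 matched genes had a start peak in all 4 libraries and 15 a strong one. A start peak in every library is also found in 95.3% to 97.4% of genes with 10 or more CpG. The CpG content of this list is not given here. The best ranked were Max (774 and 252 in wt, 677 and 393 in Hox-/-), Uhrf1 (4043 and 6297 in wt, 2739 and 2817 in Hox-/-) and L3mbtl2 (10066 and 7266 in wt, 6138 and 8227 in Hox-/-). The other 4, E2f6 (111615 and 134995 in wt, 118036 and 81298 in Hox-/-), Dnmt3b, Ehmt2 and Tet1, were not strong in every library and are named here after their values were seen. No gene of these 5 lists had a start peak in both libraries of one genotype and in neither of the other, a pattern that 0.365% of protein-coding genes showed for wt and 0.151% for Hox-/-.

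**Figure D4:**
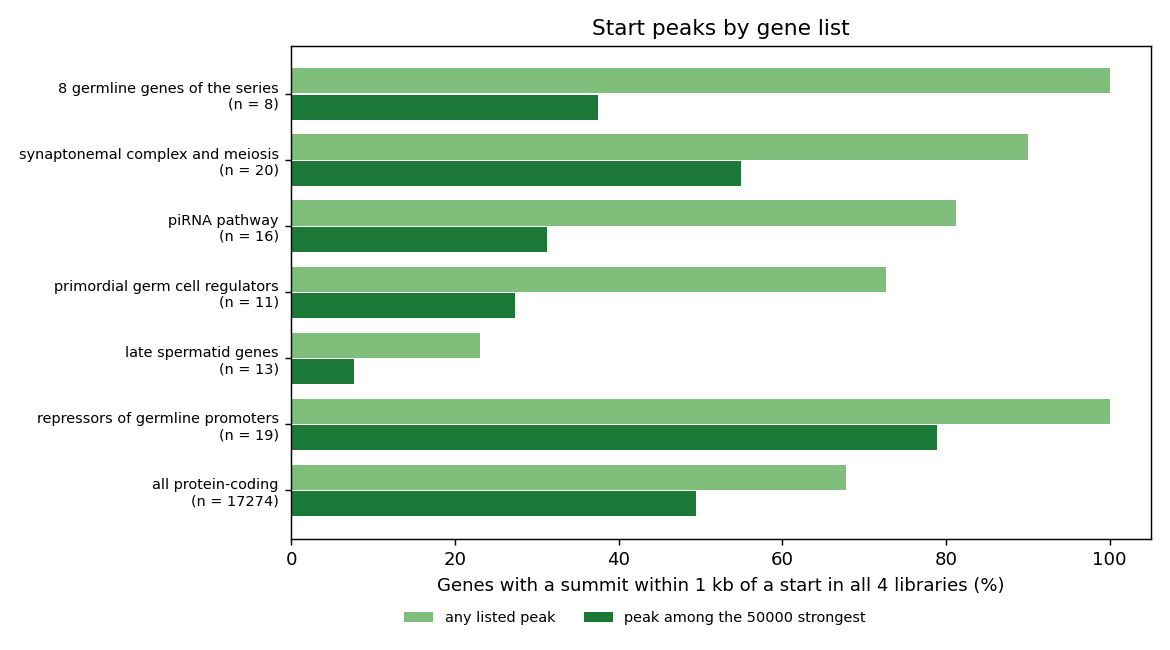
Share of genes with a summit within 1 kb of a start in all 4 libraries (x axis, %), for any listed peak and for peaks among the 50000 strongest of each library, in the 8 germline genes, 5 further lists and all 17274 protein-coding genes. All 8 germline genes have a listed start peak but 3 have a strong one, whereas 3 of 13 late spermatid genes have a listed one.

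Of the 8 germline genes, Dazl had the best mean rank within 1 kb of a start. The genes with the most similar 4 ranks were sought by the summed absolute log2 difference over the 4 libraries. They were sought among 42 genes of the further germline lists, with the other germline genes examined and the promoter factors left out. They were Tdrd7 (difference 0.93), a Tudor-domain protein of germ granules, Meioc (1.33), a meiotic factor, and Kit (1.78), a receptor of germ cell survival. Tdrd7 ranked 19543 and 16430 in wt and 22816 and 19302 in Hox-/-.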

How the data were processed

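Each of 4 libraries has its own list of called peaks. Per the submitters' processing notes, which give no order or settings, the build was mm10 and the tools included cutadapt 4.8, Bowtie2 2.5.0, Picard 2.18.2 and MACS2 2.2.9.1; the handling of duplicates and the shift for the transposase are not given in the sources used here. Each line of the deposited lists holds a fold (a ratio over background), a −log10 p, a −log10 q, a score of 10 times the −log10 q and the summit; they are the authors' values and served here for ranking, filtering and description inside one list. Replicates were not pooled at calling. The lowest −log10 q was 1.30 in each library.

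Genes and promoter sequences came from RefSeq tables of GRCm38.p6, and a start is any start of that table. A peak is at a start or end when its summit lies within 1 kb. Regions were peaks of the 4 libraries merged at an overlap of 1 bp, on the autosomes and X. The region ranking was tested on simulated data. Genotypes were compared by exact permutation tests over libraries. The genes, lists and motifs were chosen with earlier results of these data known, and the motifs with the member sequences in view. Named genes are the 8 genes, their neighbours within 5 kb and the 3 best ranked of each list. Also named are the 3 listed genes with the pattern closest to the best start of the 8. Tex19.2, the paralog of Tex19.1, and the 4 weaker promoter factors are named outside this rule. Of the listed genes, those with a start in the table are called matched. Work was done in Python 3.11.15 with pandas 2.3.3.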

Additional observations from a re-analysis of the deposited data

How the results depend on the processing

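Of 93 alternative values of results that have a sign, 22 changed it. Restricted to the top 50000 peaks per library, the genes with a peak at an end or at a start in all 4 libraries fell from 8 to 3, and the lists fell to 11 (meiosis), 5 (piRNA), 3 (germ cell regulators) and 1 (late spermatid), since fewer peaks enter. With summits within 500 bp, 7 of 8 genes had a start peak in all 4 libraries. The median shift over the regions was −0.024 with windows of 1 kb and of 10 kb, −0.0063 by fold and −0.098 with ranks as a share of each list, and −0.069 to 0.088 on leaving out 1 library. The difference in window peaks was −2 at a −log10 q of at least 5. Regions with separate ranks went from 5 to 3 with windows of 1 kb, which hold fewer regions. Ranked by fold, the best region was another one for Stra8 (6.5 kb inside the gene, shift −0.035) and for Stk31 (the start, 0.69), and the shift of the best region was 0.023 for Tex19.1 and −1.47 for Sycp1; the mean best rank was 8465 for Dazl, 53271 for Mael, 3807.5 for Sycp1 and 24618.5 for Tex19.1; for the regions that were the same, the cause was not tested. The region nearest the start gave −0.27 for Stra8, and ranks as a share of each list gave −0.031 for Stk31.

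The replicate numbers did not pair the libraries (correlation of replicate differences 0.00407 over 122746 regions). With the replicate block, in which both same-numbered differences must have 1 sign, 8 regions were separate, and no other value changed. The share of all regions under this looser rule is not given, so the 8 have no background to be read against.

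Leaving out 1 library in turn, the difference in window peaks ranged from −0.5 to 4.5 and the separate regions from 11 to 19, as a lone library overlaps less often. How many of all regions separate in that setting is not given, so these counts cannot be set against a background. The best-region shift ranged from −0.17 to 0.046 for Dazl, −0.089 to 0.47 for Ddx4, −0.28 to 0.093 for Mael, −0.71 to 0.082 for Sycp1, −0.067 to 0.37 for Sycp3, 0.26 to 0.56 for Stra8, −0.27 to 0.22 for Tex19.1 and −0.10 to 0.30 for Stk31. The Stk31 range is that of the site 17.7 kb inside the gene, and no such range is given for its start. The genes with a start peak stayed at 8 and the genes in 1 genotype at 0. Depth is unknown, so the absence of a weak peak from a list does not show closed chromatin.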
